A study of Mus musculus with 4 samples.

Results

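The annexins are a family of calcium-dependent membrane-binding proteins, described here in mouse epidermis with and without the calcium sensors STIM1 and STIM2. The 10 annexin genes reported, Anxa1 to Anxa9 and Anxa11, were taken by name from the 56493 genes of the count table; the family was chosen with earlier results of these data known. The knockout group (cKO) came from mice in which a keratin 14-driven Cre recombinase deletes Stim1 and Stim2 in epithelial tissue, and the control group (Flox/Flox) from mice whose Stim1 and Stim2 alleles are floxed. Each group had 2 libraries, made from whole dorsal epidermis that had been split from the dermis with sodium thiocyanate. Age, sex and background strain are not given in the sources used here, nor is it stated whether each library came from its own animal, so p-values measure only the spread between these libraries.

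A typical annexin binds phospholipid through a conserved core when calcium rises, and its variable amino-terminal tail carries the contacts that set family members apart, such as those with S100 proteins. In keratinocytes annexins are known from plasma membrane repair, vesicle transport, the control of inflammatory lipid release and the cornified envelope. Store-operated calcium entry, which the STIM proteins start when the calcium store of the endoplasmic reticulum runs low, is a source of the calcium that typical annexins sense.

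The libraries were shallow, with 118858 to 322426 counts in total. Counts of Stim1 were 23 and 6 for cKO against 24 and 62 for control, and those of Stim2 were 0 and 1 against 3 and 18, so that both targeted genes had their lowest normalised levels in the cKO libraries; Stim1 was not called (edgeR adjusted p = 0.671) and Stim2 was too sparse to be tested. Keratinocyte markers were present in every library (Krt5 114 to 637 counts, Krt10 132 to 1162), and some of them differed between the groups. Flg, the filaggrin gene of the granular layer, and the stress keratin genes Krt6a and Krt6b were called higher in cKO (log2 fold changes 5.07, 4.87 and 6.48, edgeR adjusted p 0.000593, 0.00062 and 7.79e-05). The basal keratin gene Krt14 stood at 4355 and 3001 CPM in cKO against 928 and 865 CPM in control and was not called (adjusted p = 0.0507); CPM are counts scaled to a common library size after TMM normalisation. The summed basal, suprabasal and stress keratinocyte lists each overlapped between the groups. In each of these lists 1 tested gene lay lower in both cKO libraries without being called, and 1, 2 and 2 lay higher in both. Of all genes tested, 19.6% lay lower and 18.9% higher in both cKO libraries. Nothing particular to these lists is read in these counts. Krt15 stood at 841 and 1551 CPM in cKO against 2855 and 2098 CPM in control. Dsg1a stood at 1039 and 910 CPM against 2295 and 3257 CPM, and Krt17 at 1314 and 1652 CPM against 3314 and 4436 CPM. Markers of other cells moved with the groups in part. The 10 skeletal muscle markers together stood at 44.5 and 135 CPM in cKO against 1505 and 1035 CPM in control. Of the 7 that were tested, 4 were called lower (Acta1, Myh4, Tnnc2 and Pvalb). Of all genes tested, 0.848% were called in either direction. The hair follicle list, of which 4 of 8 genes in the table were at 0 (Krt27, Krt73, Krt31 and Krt33a), stood at 408 and 348 CPM against 1398 and 1293 CPM, most of it Tchh. The T cell list, in which Trac was at 0, stood at 299 and 303 CPM against 432 and 434 CPM. Of its 4 tested genes only 1, Ptprc, had both cKO values below both control values, an arrangement that 19.6% of all genes tested showed. Thy1 was both highest and lowest in the cKO libraries, at 170 and 11.2 CPM against 53.4 and 28.7 CPM. The neutrophil list, with Ly6g, Mpo and Csf3r at 0, was sparse and stood the other way, at 44.5 and 101 CPM against 16.0 and 12.8 CPM. The lists of Langerhans and myeloid cells, sebaceous gland, fibroblasts (Pdgfra and Fbn1 at 0) and melanocytes overlapped between the groups, and that of endothelial cells (Cdh5, Kdr, Emcn and Tie1 at 0) stayed at or below 22.5 CPM. In cKO replicate 2 the fibroblast, sebaceous and melanocyte sums were the highest. Fibroblast sums were 52.6 and 775 CPM in cKO against 272 and 150 CPM in control. Sebaceous sums were 849 and 2394 CPM against 998 and 821 CPM, and melanocyte sums 137 and 427 CPM against 326 and 86.2 CPM. The Langerhans and myeloid sum was highest in control replicate 1, at 1448 and 3889 CPM against 4077 and 2347 CPM. Pseudogenes with a Gm symbol held 17.5% and 28.1% of all counts for cKO against 17.1% and 10.7% for control; without them the log2 ratio of the summed annexins, given next, was -0.73 in place of -0.72. The part of these cells and of these marker differences in the annexin values was not tested, and in bulk epidermis fewer cells of a type and less RNA per cell cannot be told apart.

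**Figure D1:**
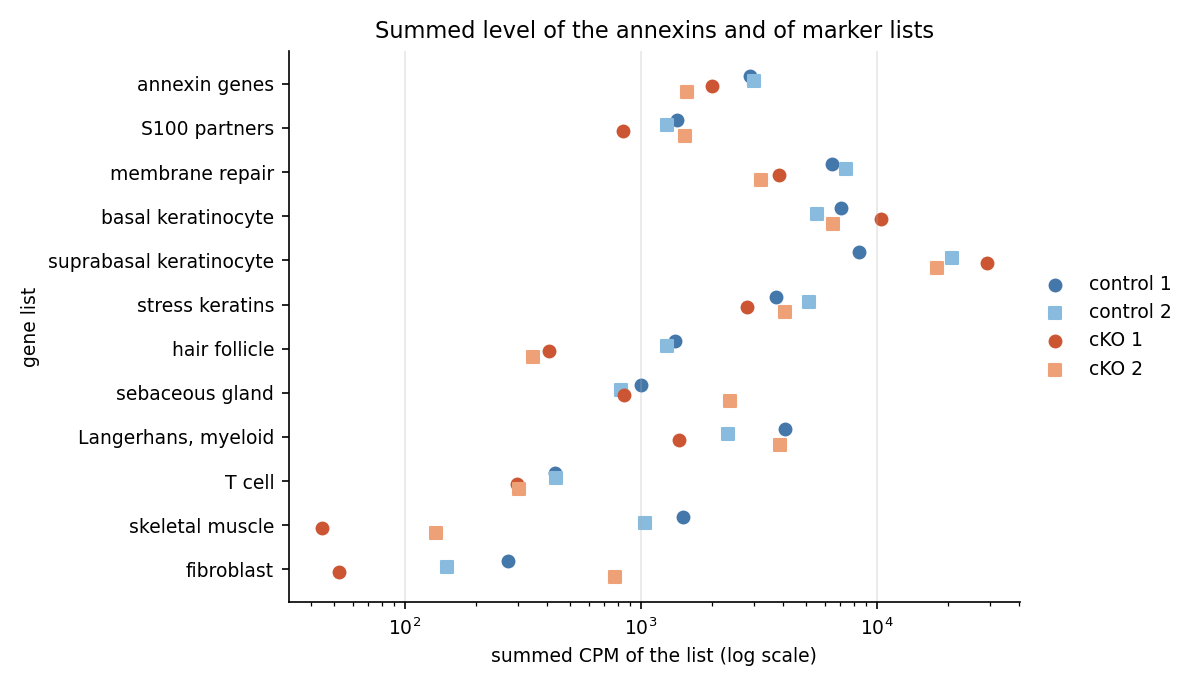
Summed CPM of the annexin genes and of lists of partner, repair and cell type marker genes (rows) in the 4 libraries, on a log axis; circles are replicate 1 and squares replicate 2. The annexin sum was 2006 and 1573 CPM in cKO and 2898 and 3008 CPM in control, and the skeletal muscle list showed the widest gap between the groups. The membrane repair sum, most of it Ahnak, was 3841 and 3214 CPM in cKO and 6430 and 7412 CPM in control. Of its 6 tested genes 3 lay lower and 2 higher in both cKO libraries.

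The summed annexin level was lower in both knockout libraries, and most of the gap came from Anxa2 and Anxa8. Anxa1 overlapped between the groups, as did the 7 genes other than these 3 when summed. Group means (CPM, cKO and control) were 632 and 1236 for Anxa2, 497 and 944 for Anxa8 and 312 and 407 for Anxa1. Summed over the 10 genes, the annexin counts were 496 and 140 for cKO against 543 and 942 for control. After scaling these were 2006 and 1573 CPM in cKO and 2898 and 3008 CPM in control, or 1789 ± 306 CPM (SD, n = 2) against 2953 ± 78.3 CPM (SD, n = 2). Both cKO sums lay below both control sums, by 1.65-fold between the means. With 2 libraries a group, an exact two-sided permutation test cannot go below p = 0.333, which is the value this difference reached. Anxa1, Anxa2 and Anxa8 alone summed to 1577 and 1304 CPM in cKO and 2572 and 2603 CPM in control, and the other 7 genes to 429 and 270 CPM against 326 and 406 CPM. Without Anxa2 the sums over the other 9 genes, Anxa8 among them, were 1484 and 832 CPM against 1601 and 1833 CPM. This was a 1.48-fold gap of the means, and the groups still did not overlap.

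No single annexin passed the test over all genes. Of the 10 members, 6 passed the count filter (Anxa1, Anxa2, Anxa5, Anxa7, Anxa8 and Anxa9), and 0 of these 6 were called at an adjusted p under 0.05 in edgeR, where 0.848% of the 4243 genes tested were. DESeq2 and limma-voom also called 0 of the 6. At an unadjusted p under 0.05 in edgeR there was 1 of the 6, Anxa2, beside 8.39% of all genes tested. The fitted log2 fold change was below 0 in 4 of the 6, with a median of -0.30, while the median over all genes tested was 0.01. The annexin median became -0.81 without cKO replicate 1 and -0.57 without control replicate 1, where 7 members were fitted. It was -0.77 without the count filter, where all 10 were fitted, members too sparse to be tested included. The medians over all genes in these settings were -0.16, 0.03 and -0.15. In 2 of the 6, Anxa2 and Anxa8, both cKO values lay below both control values, an arrangement that 19.6% of all genes tested showed, and 0 of the 6 showed the opposite one, against 18.9% of all genes. From 6 genes, nothing particular to the family is read in these shares.

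Anxa2 (ENSMUSG00000032231, chromosome 9, 69360902 to 69399077, plus strand) encodes annexin A2, which pairs with S100A10 into a membrane-linking complex that also holds plasminogen activators at the cell surface. The cKO libraries held 129 and 66 counts of it, the control libraries 243 and 368. Its levels were 522 and 742 CPM in cKO and 1297 and 1175 CPM in control. Both cKO libraries were thus low, at a mean of 632 ± 156 CPM (SD, n = 2) against 1236 ± 85.9 CPM (SD, n = 2), or 51.1% of control. The fitted log2 fold change was -0.98 with a standard error of 0.42 and a 95% interval from -1.89 to -0.065 (edgeR, adjusted p = 0.535, unadjusted p = 0.0377), so the difference was not past the threshold.

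Anxa8 (ENSMUSG00000021950, chromosome 14, 33807938 to 33822528, plus strand) encodes annexin A8, which is found in stratified epithelia and on late endosomes. Anxa8 counts were 165 and 29 for cKO against 175 and 299 for control. Scaled, these were 667 and 326 CPM in cKO and 934 and 955 CPM in control. The control libraries lay close together and above both cKO libraries, which themselves stood far apart; on average cKO stood at 52.6% of control. The fitted log2 fold change of Anxa8 was -0.90 with a standard error of 0.45 and a 95% interval from -1.87 to 0.08 (edgeR, adjusted p = 0.656). Leaving out cKO replicate 1 gave -1.58 and leaving out cKO replicate 2 gave -0.49, neither of them past the threshold.

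Anxa1 (ENSMUSG00000024659, chromosome 19, 20350792 to 20368308, minus strand) encodes annexin A1, the glucocorticoid-induced protein that restrains phospholipase A2 and is crosslinked into the cornified envelope. The counts were 96 and 21 for cKO against 64 and 148 for control, or 388 and 236 CPM against 342 and 473 CPM. The groups overlapped, since cKO replicate 1 lay above control replicate 1. The log2 fold change of -0.36 had a 95% interval from -1.31 to 0.60 (edgeR, adjusted p = 0.946), wide enough to hold a change as large as that of Anxa2 or none. The value was -0.84 when cKO replicate 1 was left out and -0.066 when cKO replicate 2 was.

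**Figure D2:**
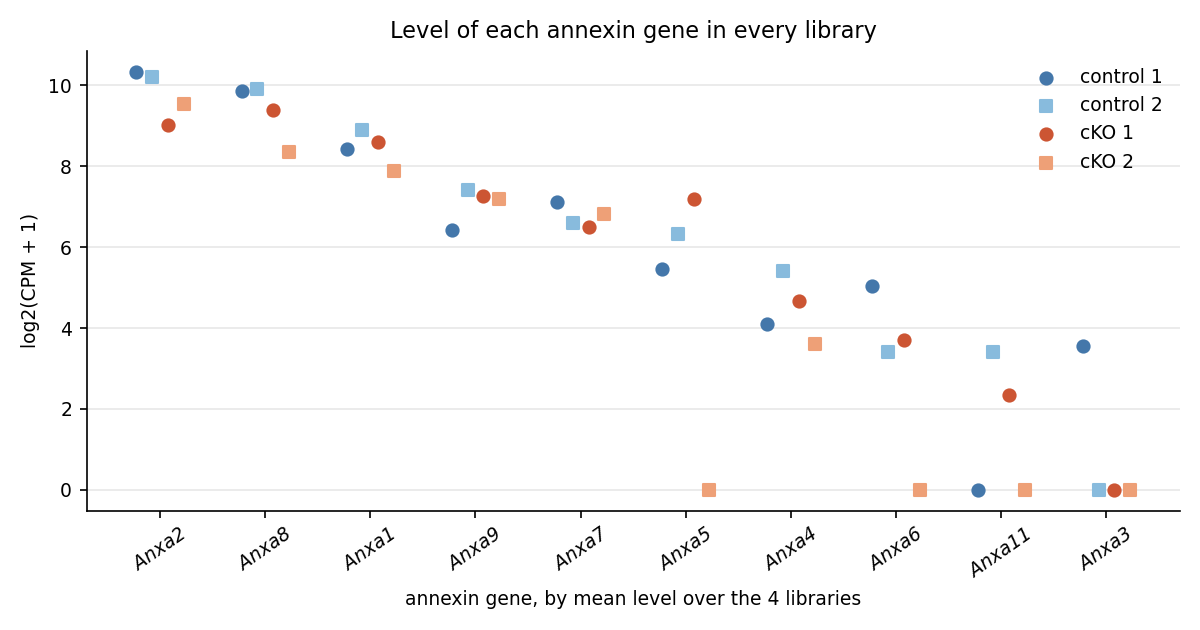
Level of each annexin gene as log2(CPM + 1) in every library; blue marks are control, red and orange marks are cKO, circles replicate 1 and squares replicate 2. Both cKO marks lie below both control marks for Anxa2 and Anxa8 and for none of the other genes, and 0 marks the libraries with no count.

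The start regions of these 3 abundant genes are shown because Anxa2 and Anxa8 lay lower in the same libraries while Anxa1 overlapped. The windows run from 250 bases before to 50 after the start of transcription in RefSeq (GRCm38.p6, a different build from that of the count table), are written 5′ to 3′ on the gene's strand, and lie at chr9:69453433-69453732 (plus) for Anxa2, chr14:34085729-34086028 (plus) for Anxa8 and chr19:20390622-20390921 (minus) for Anxa1. Capitals mark GGAAA, the core bound by the calcium-regulated factor NFAT, TGANTCA, the AP-1 site, and TATAAA, the TATA box, each searched on both strands (GGAAA reads TTTCC from the other strand); no 2 matches overlap.
Anxa2: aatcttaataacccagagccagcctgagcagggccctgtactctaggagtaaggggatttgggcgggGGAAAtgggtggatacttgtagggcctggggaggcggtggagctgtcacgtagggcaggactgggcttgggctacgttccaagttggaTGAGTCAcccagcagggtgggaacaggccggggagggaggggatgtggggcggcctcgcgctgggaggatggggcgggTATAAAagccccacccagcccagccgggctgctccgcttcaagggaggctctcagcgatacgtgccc
Anxa8: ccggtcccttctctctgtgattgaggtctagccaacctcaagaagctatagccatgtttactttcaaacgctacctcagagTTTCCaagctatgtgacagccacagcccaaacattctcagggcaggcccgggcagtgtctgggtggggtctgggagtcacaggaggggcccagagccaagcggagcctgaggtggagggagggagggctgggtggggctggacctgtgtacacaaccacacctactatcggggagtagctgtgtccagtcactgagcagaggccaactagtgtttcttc
Anxa1: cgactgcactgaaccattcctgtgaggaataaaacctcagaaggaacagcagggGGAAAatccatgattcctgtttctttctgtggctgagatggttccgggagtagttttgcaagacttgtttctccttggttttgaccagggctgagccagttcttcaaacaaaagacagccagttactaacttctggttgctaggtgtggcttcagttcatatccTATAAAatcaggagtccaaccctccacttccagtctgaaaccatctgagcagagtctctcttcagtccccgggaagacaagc
The Anxa2 window held 1 match of each motif, with the AP-1 match starting at base -95 and the TATA match at base -17. The Anxa8 window held 1 GGAAA match and neither of the others, and the Anxa1 window held 1 GGAAA and 1 TATAAA match. Over all 32851 windows of this length in the RefSeq table, 61.3% held GGAAA, 7.81% TGANTCA and 13.6% TATAAA, so that a GGAAA match is common in any such window. The Anxa2 window had 63.7% G and C and 13 CG pairs, that of Anxa8 57.3% and 5 pairs and that of Anxa1 47.3% and 3 pairs, beside medians of 52.7% and 7 pairs over all windows. Of the 10 members 8 had a window in the table; Anxa3 and Anxa6 had none. A match describes letters in a window and not a bound site.

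The middle group of the family, Anxa9, Anxa7 and Anxa5, showed no common direction. Anxa9 (ENSMUSG00000015702, chromosome 3, 95203407 to 95214487, minus strand) encodes annexin A9, or pemphaxin, a keratinocyte protein known as a target of pemphigus antibodies. In cKO 38 and 13 counts were found, in control 16 and 53, or 154 and 146 CPM against 85.4 and 169 CPM. Both cKO values lay between the 2 control values, and the log2 fold change of 0.21 had a 95% interval from -0.87 to 1.29 (edgeR, adjusted p = 0.989). Its sign was not stable, from -0.17 without control replicate 1 to 0.83 without control replicate 2.

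Anxa7 (ENSMUSG00000021814, chromosome 14, 20505328 to 20530201, minus strand) encodes annexin A7, or synexin, first described for joining secretory granules. Its counts were 22 and 10 for cKO against 26 and 30 for control. At 89.0 and 112 CPM against 139 and 95.8 CPM the groups overlapped, and the log2 fold change was -0.23 with a 95% interval from -1.39 to 0.92 (edgeR, adjusted p = 0.988). It turned to 0.047 without control replicate 1 and was -0.47 without control replicate 2.

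Anxa5 (ENSMUSG00000027712, chromosome 3, 36503072 to 36530043, minus strand) encodes annexin A5, which coats phosphatidylserine exposed on dying or damaged membranes. The cKO libraries held 36 and 0 counts, the control libraries 8 and 25. The highest and the lowest value of the 4 libraries were thus both cKO libraries, at 146 CPM and at no count, where 0 counts allow up to 33.7 CPM in cKO replicate 2; control stood at 42.7 and 79.8 CPM. The log2 fold change of 0.45, with a 95% interval from -1.43 to 2.32 (edgeR, adjusted p = 0.988), averages these unlike libraries. Leaving out cKO replicate 2 gave 1.21, and leaving out cKO replicate 1 gave -6.64, a fitted value against 0 counts that is no measure of size.

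**Figure D3:**
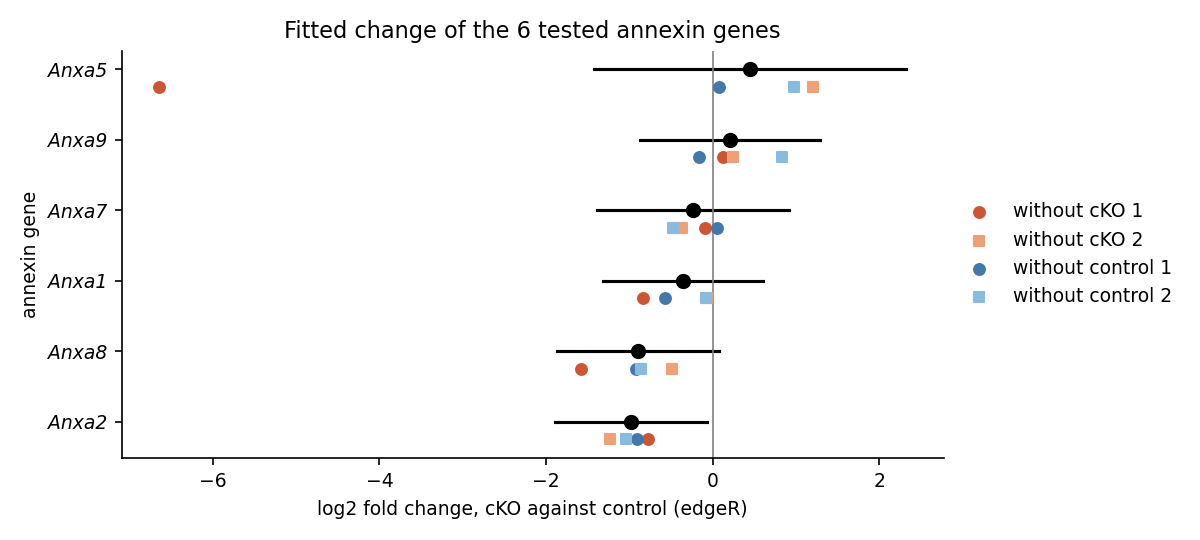
Fitted log2 fold change of the 6 tested annexin genes, cKO against control; black points and bars give the edgeR value and its 95% interval, and coloured marks the value without the named library. The Anxa2 interval ends at -0.065 and those of the other 5 genes cross 0; the Anxa5 mark at -6.64 is the fit without cKO replicate 1.

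The other 4 members were too sparse to be tested, and no direction can be read from them. Anxa4 (ENSMUSG00000029994, chromosome 6, 86713822 to 86770566), an annexin of epithelial membranes, was found with 6 and 1 counts for cKO against 3 and 13 for control. Anxa6 (ENSMUSG00000018340, chromosome 11, 54869934 to 54924271), a large annexin with a duplicated core that is abundant in connective tissue and muscle, had 3 and 0 counts against 6 and 3. Anxa11 (ENSMUSG00000021866, chromosome 14, 25842580 to 25887228), which binds the calcium sensor ALG-2, had 1 and 0 counts against 0 and 3. Anxa3 (ENSMUSG00000029484, chromosome 5, 96941198 to 96993825), known from neutrophil granules, was counted 2 times in control replicate 1 and in no other library. In every one of these genes the counts of the groups overlapped after scaling. A library with 0 counts still allows 12.1 or 33.7 CPM in cKO and 16.0 or 9.58 CPM in control (replicates 1 and 2), counting error only. Of the annexin genes outside the 10, Anxa10 and Anxa13 had 0 counts in all 4 libraries.

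The order of levels within the family depended on the scale. The kit reads the 3′ end, so that a count does not grow with transcript length as in full-length sequencing. Division by exon length can then place short transcripts too high, and both scales are given. As CPM per kilobase of exon, Anxa8 led in control (497 and 508), followed by Anxa2 (348 and 315), Anxa1 (117 and 162) and Anxa9 (41.2 and 81.6), with no overlap between neighbours; Anxa5 (24.0 and 44.9) and Anxa7 (23.2 and 16.0) followed, and Anxa5 overlapped with Anxa9. In cKO the per-kilobase levels of Anxa8 (355 and 173) and Anxa2 (140 and 199) overlapped, and those of Anxa1 were 133 and 81.1. As CPM without division by length, the scale closer to what this kit counts, Anxa2 stood above Anxa8 in control (1297 and 1175 against 934 and 955). Within a library, where no scaling enters, the ratio of Anxa8 counts to Anxa2 counts was 1.28 and 0.439 for cKO against 0.720 and 0.813 for control (replicates 1 and 2). The control ratios lay between those of the cKO libraries.

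The shares of Anxa2 and Anxa8 among the annexin counts differed more between the 2 cKO libraries than between the group means. Anxa2 took 26.0% of the annexin counts in cKO replicate 1 (95% Wilson interval 22.3% to 30.0%) and 47.1% in cKO replicate 2 (39.1% to 55.4%). In control it took 44.8% (40.6% to 49.0%) and 39.1% (36.0% to 42.2%). The intervals of the 2 cKO libraries did not overlap, and cKO replicate 1 also stood below both control libraries. Anxa8 took 33.3% (29.3% to 37.5%) and 20.7% (14.8% to 28.2%) in cKO against 32.2% (28.4% to 36.3%) and 31.7% (28.8% to 34.8%) in control, so here cKO replicate 2 was the low library. Anxa9 was the member whose share of counts did not overlap between the groups, at 7.66% and 9.29% in cKO against 2.95% and 5.63% in control (exact two-sided permutation p = 0.333, the smallest possible here); the counting intervals of both cKO libraries (5.63% to 10.3% and 5.51% to 15.2%) overlapped that of control replicate 2 (4.33% to 7.29%). For the other 9 members the shares of counts overlapped between the groups. With counts divided by exon length, the shares of 3 members were apart: Anxa9 at 9.16% and 12.9% in cKO against 3.86% and 7.15% in control, Anxa1 at 16.5% and 14.9% against 10.99% and 14.2%, and Anxa8, the lower one in cKO, at 43.9% and 31.8% against 46.5% and 44.5%. The exact permutation p was 0.333 for each. These intervals cover counting error only.

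**Figure D4:**
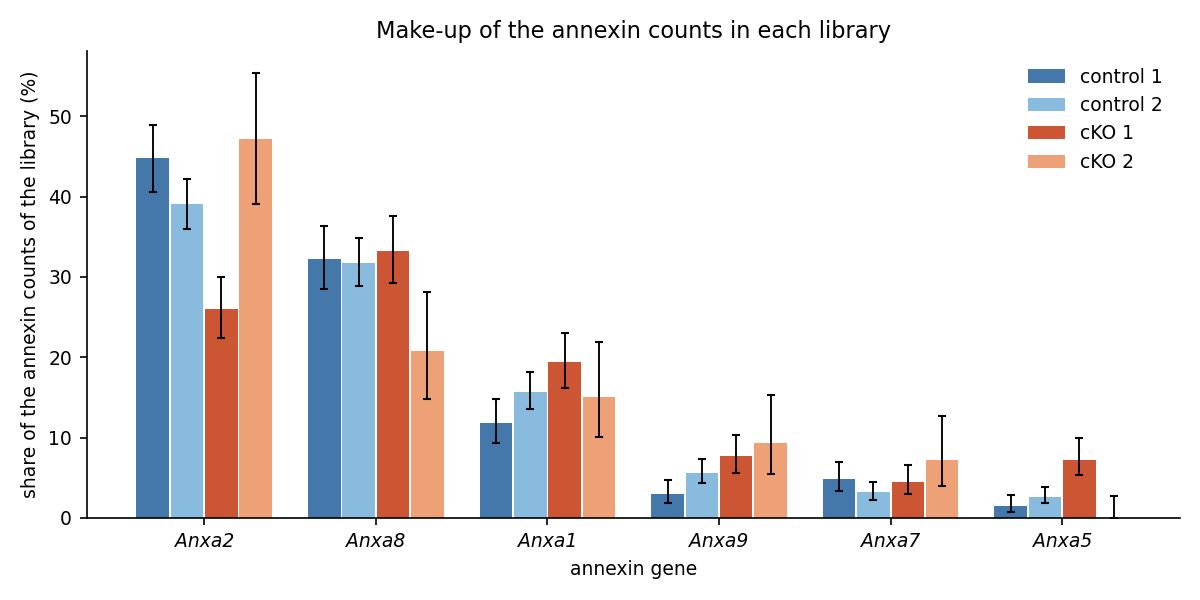
Share of each library's annexin counts taken by the 6 tested genes, in percent, with 95% Wilson intervals as error bars; blue bars are control, red and orange bars cKO. The Anxa2 bar of cKO replicate 1, at 26.0%, is the lowest of its gene, while that of cKO replicate 2, at 47.1%, is the highest.

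The genes of S100 proteins that bind annexin tails were measured beside them, and 0 of 4 were called, beside 0.848% of all genes tested. S100a10, the partner of annexin A2, stood at 174 and 461 CPM in cKO and 491 and 406 CPM in control, with overlapping groups (log2 fold change -0.56, edgeR adjusted p = 0.894). There were 3 and 1.61 Anxa2 counts for each S100a10 count in cKO and 2.64 and 2.90 in control. S100a11, the partner of annexin A1, stood at 222 and 236 CPM in cKO and 309 and 240 CPM in control (log2 fold change -0.26, adjusted p = 0.971). Each cKO value of S100a11 lay below each control value, by little between cKO replicate 2 and control replicate 2. There were 1.75 and 1.00 Anxa1 counts for each S100a11 count in cKO and 1.10 and 1.97 in control. Neither ratio separated the groups. S100a4 stood at 48.5 and 78.7 CPM against 96.1 and 112 CPM, also without overlap (log2 fold change -0.79, adjusted p = 0.844), and S100a6 at 396 and 753 CPM against 523 and 533 CPM (log2 fold change 0.10, adjusted p = 0.994). Thus 2 of the 4 partners lay lower in both cKO libraries, an arrangement that 19.6% of all genes tested showed. From 4 genes, nothing particular to the partners is read in this. Summed, the 4 partners overlapped between the groups, at 841 and 1528 CPM in cKO and 1419 and 1290 CPM in control.

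Genes of the processes in which annexins act were followed in 6 further lists, with 0 genes called in any of them. Of all genes tested 0.848% were called, and at most 6 genes of a list were tested. Nothing particular to these lists is read in the lack of calls. The formyl peptide receptors through which annexin A1 acts on leukocytes, Fpr1, Fpr2 and Fpr3, had 0 counts in all 4 libraries. Of the 7 plasminogen genes reported, 5 had 0 counts in all libraries (Plg, Plat, Plau, Plaur and Serpine2) and only the plasminogen receptor Plgrkt was tested, at 68.7 and 157 CPM in cKO against 64.0 and 38.3 CPM in control (log2 fold change 1.08, edgeR adjusted p = 0.749).

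Of the 15 membrane repair genes 6 were tested, 4 of them with a fitted value below 0, and their median log2 fold change was -0.20. Ahnak, the giant scaffold protein that binds the complex of annexin A2 with S100A10, was counted 813 and 234 times for cKO against 1081 and 2137 times for control. Its levels of 3287 and 2630 CPM lay below those of control, 5768 and 6824 CPM, in the same arrangement as Anxa2 and Anxa8. Of all genes tested 19.6% showed this arrangement. In this list 3 of the 6 tested genes showed it and 2 showed the opposite one. The log2 fold change of Ahnak was -1.09 with a standard error of 0.43, and it was not past the threshold (edgeR adjusted p = 0.479, unadjusted p = 0.0249). Myof, which encodes the membrane repair protein myoferlin, lay the other way, at 80.9 and 56.2 CPM in cKO against 26.7 and 28.7 CPM in control (log2 fold change 1.33, adjusted p = 0.716).

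Among the genes that set phosphatidylserine exposure, 2 of 10 were tested. The scramblase gene Ano6 stood at 166 and 45.0 CPM in cKO against 203 and 105 CPM in control (log2 fold change -0.38, edgeR adjusted p = 0.965). The flippase subunit gene Tmem30a stood at 186 and 281 CPM against 283 and 300.2 CPM (log2 fold change -0.36, adjusted p = 0.946). In the lipid mediator list 3 of 10 genes were tested, 2 of them with a fitted value below 0. Ptgs1, a cyclooxygenase gene, stood at 158 and 89.9 CPM in cKO against 299 and 620 CPM in control, the groups well apart but not past the threshold (log2 fold change -1.83, adjusted p = 0.174). Pla2g4a, which encodes the cytosolic phospholipase A2 that annexin A1 restrains, was at 7 and 1 counts for cKO against 16 and 14 for control (log2 fold change -1.49, adjusted p = 0.716). Of the 4 transglutaminase genes, Tgm3 was tested, with 12 and 0 counts for cKO against 23 and 50 for control (log2 fold change -2.15, adjusted p = 0.368).

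Of the 10 members, 5 share exon bases with another gene of the table, and how many reads this concerns was not measured. Exons of Anxa2 share 98 bases with the non-coding gene Gm16144 on the opposite strand, and exons of Anxa9 share 94 bases with 6330562C20Rik on the same strand and 71 with Mindy1 on the opposite strand; the sources used here do not say if reads were counted by strand. Anxa3, Anxa4 and Anxa11 share 112, 75 and 113 bases with 1 other gene each. Among GENCODE M21 transcripts, 9 of the 10 members had no copy in another gene (95% identity or more over 150 bases or more), and Anxa11 had 2. Gene positions in the text are those of the count table, for which the submitters' processing notes name GRCm39.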

How the data were processed

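Total RNA from separated epidermis (2 cKO and 2 control libraries) was sequenced with the QIAseq UPX kit, which reads transcripts from their 3′ end, and converted for MGI sequencing, per the labels' protocols. The authors deposited 1 table of raw counts per gene, with exon positions and exon length per the file headers. Trim Galore 0.6.7, Trimmomatic 0.39, cutadapt 3.7, STAR 2.7.10a, featureCounts 2.0.1 and GRCm39 are named in the submitters' processing notes; strand use, molecular identifiers and multi-mapping reads are not given in the sources used here, and how they were handled could change counts of single genes.

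The counts were tested in edgeR 4.0.16 (R 4.3.3): filterByExpr (minimum count 10, minimum total 15; 4243 genes kept), TMM scaling of the kept counts, glmQLFit and glmQLFTest fitted on genotype alone, and Benjamini-Hochberg adjustment over all genes tested with a threshold of 0.05. Standard errors are the absolute log2 fold change over the square root of F. Intervals and the limit for 0 counts (3 counts) cover counting error or the fit only. The fit was tested on simulated data. Alternatives were other scalings and filters, DESeq2 1.42.0, limma-voom (limma 3.58.1), a robust fit, glmQLFit with legacy set to FALSE, a replicate block, a threshold of 0.1 and each library left out. Those added after seeing the data left out pseudogenes or crossed the replicate numbers. Near-identical transcripts were sought with blastn 2.17.0. Members and gene lists were chosen with earlier results of these data known. All 10 members and 4 S100 partners are named; of the pathway lists, genes called (there were 0) and otherwise the 2 tested genes of at least 10 CPM on average whose absolute change was largest; called genes of the cell marker lists are named too. Of per-sample columns, 0 were left unused. From the plasminogen list, 1 gene is not reported here.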

Additional observations from a re-analysis of the deposited data

How the results depend on the processing

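Of the 18 alternatives, those that kept all 4 libraries called 0 annexin genes. The summed annexin level was lower in cKO in each of the 12 for which it was computed. Its log2 ratio was -0.72 in the main fit and from -0.95 to -0.55 with 1 library left out. These settings reuse the same 4 libraries, whose sums did not overlap, so the shared sign is not separate support. With library totals alone as the scaling the log2 ratio was -0.97, and that scaling moved the median of all genes tested from 0.01 to -0.24. The median log2 fold change of the tested annexins became -0.77 without a count filter, where all 10 were fitted and the median of all genes was -0.15. With 1 library left out the annexin median ranged from -0.81 to -0.28. Anxa1, Anxa2 and Anxa8 kept a negative sign in each setting, with Anxa2 from -1.26 to -0.78. Signs reversed for Anxa9 with library totals alone (-0.040) and without control replicate 1 (-0.17), for Anxa7 without control replicate 1 (0.047), and for Anxa5 with the replicate block (-0.084) and without cKO replicate 1 (-6.64), against up to 0.83, -0.47 and 1.21 at the other end of the fits with 1 library left out for Anxa9, Anxa7 and Anxa5; the causes were not tested. The lowest adjusted p of any annexin was 0.261 among the fits other than the crossed block, for Anxa8 without cKO replicate 1. Replicate numbers do not pair the libraries by any label; the deviations of replicate 1 correlated at -0.16 across genes between the groups, and the replicate block called 16 genes higher and 1 lower in all, against 28 and 8 without it. Crossed numbers gave 90 and 57, with 0 annexins. Over the other alternatives the whole-table calls ranged from 12 (limma-voom) to 59 (without cKO replicate 2) higher and from 3 (limma-voom) to 34 (without cKO replicate 1) lower, the latter sets with 1 cKO library assumed to vary like the rest. Depth limits the estimates most in cKO replicate 2, where 1 count is worth 11.2 CPM.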
